A study of Saccharomyces cerevisiae BY4741 with 6 samples.

Results

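*HSP12*, *DDR2*, *HOR7*, *TMA10*, *STF2*, *RTC3*, *SIP18*, *GRE1*, *FMP16* and *MOH1* encode small proteins of yeast that accumulate under stress. These 10 genes, of 5449 measured, were picked by name with their response to neomycin already known. Their changes are therefore a description. Where the fit over all genes called some of them, the count is given beside the share of all genes called, and it is no test of the 10 genes. The transcripts were measured on Affymetrix Yeast Genome 2.0 arrays, 1 array for each of 6 cultures of *Saccharomyces cerevisiae* BY4741, a haploid laboratory strain of mating type a that lacks *LEU2*, *MET17* (*MET15*) and *URA3* and carries a partial deletion of *HIS3*. All 6 cultures therefore share these deletions. The 3 untreated cultures grew in rich medium (YPD) for 4 h, and the 3 neomycin cultures grew for the same time in YPD with neomycin sulfate, an aminoglycoside antibiotic, at 10 mg/mL. Each of the 10 genes has a single probe set on the array, so that no choice between probe sets was needed.

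In growing yeast, protein kinase A keeps the activators Msn2 and Msn4 inactive while glucose is plentiful. Under heat, osmotic, oxidative or nutrient stress both enter the nucleus, bind stress response elements and switch on a broad set of genes, of which *HSP12*, *CTT1* (cytosolic catalase) and *DDR2* are classical reporters. Several products of the set are hydrophilins, short, glycine-rich and largely disordered proteins that help cells to survive drying. Hsp12 settles on the plasma membrane and helps to keep it organised. *DDR2* and *HOR7*, *TMA10* and *STF2*, and *SIP18* and *GRE1* are paralog pairs left by the ancient duplication of the yeast genome.

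All levels are log2 values of GCRMA probe set signals, a scale on which a difference of 1 is a doubling. Probe sets differ in how well they bind, so signals of different genes are not ranked against each other. As a mark of background served the deleted genes. *LEU2*, *MET17* and *URA3* had untreated means of 4.62, 3.65 and 3.45, and the highest of their means over the 6 arrays was 4.68. Among the markers of mating type, the a-cell genes *STE2*, *MFA1*, *MFA2* and *BAR1* had untreated means of 11.27 to 12.61. Of the α-cell genes *MF(ALPHA)1* read 3.71, under the mark, while *STE3*, *MF(ALPHA)2* and *SAG1* read 5.82, 6.20 and 8.29, above it.

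With neomycin all 10 genes had a higher mean signal than without it, by 0.09 (*SIP18*) to 1.43 (*HSP12*) on the log2 scale, with a median of 0.76. Over all 5449 genes the median log2 fold change was −0.05, and 37.9% of the genes had a value above 0. In 7 of the 10 genes every neomycin array stood above every untreated array, as in 5.58% of all genes. In the remaining genes, *TMA10*, *STF2* and *SIP18*, the groups overlapped. In limma's fit over all genes, with an adjusted p under 0.05 as the threshold, 0.422% of the genes were called higher, 0.0918% lower and thus 0.514% in either direction. Of the 10 genes 1, *DDR2*, was called, with a higher level, and 0 were called lower. By the criteria of the study's methods, a ratio of mean signals of at least 1.7 with a Bayesian p of at most 0.05, *HSP12*, *DDR2*, *TMA10*, *FMP16* and *RTC3* were induced, and 1.45% of all genes met them (1.5% reached the ratio alone). These shares stand beside counts of genes picked for their response, and nothing is read from them.

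**Figure D1:**
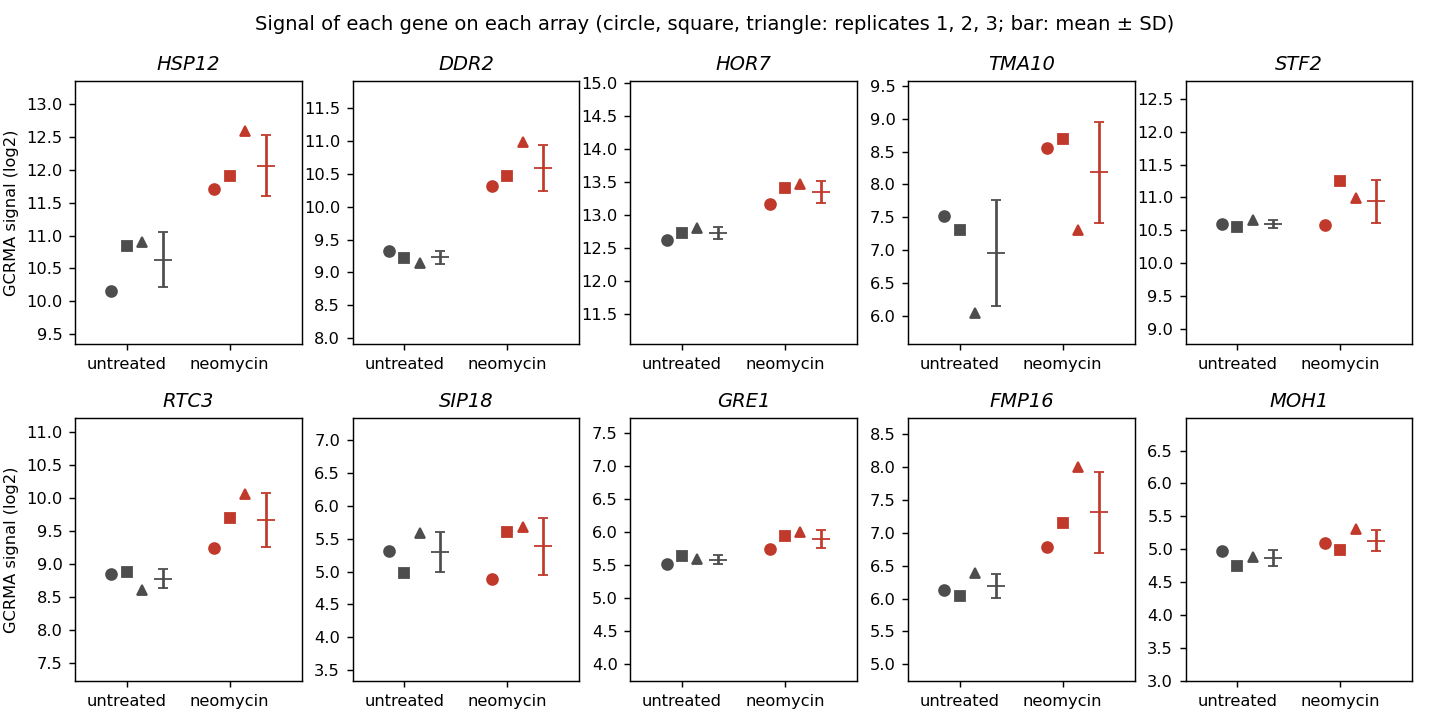
GCRMA signal (log2, vertical axis; every panel spans the same range of log2 units) of each of the 10 genes on the 3 untreated (grey) and 3 neomycin (red) arrays, with replicates 1, 2 and 3 as circle, square and triangle and the bar giving the group's mean ± SD. The groups are apart in 7 panels and overlap in those of *TMA10*, *STF2* and *SIP18*, and *TMA10* has its lowest signal in each group on replicate 3.

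*HSP12* (YFL014W) encodes the membrane-associated hydrophilin described above. Its signal was 10.15, 10.85 and 10.90 on untreated replicates 1, 2 and 3 and 11.71, 11.90 and 12.58 on the neomycin replicates. The lowest neomycin array thus lay 0.81 above the highest untreated array, and untreated replicate 1 stood apart from the other untreated arrays. The log2 fold change was 1.43 (SE 0.27, n = 3 per group), with a ratio of mean signals of 2.72.

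*DDR2* (YOL052C-A), whose product has no known molecular function and whose expression answers to DNA damage, heat and many other agents, read 9.33, 9.22 and 9.14 on the untreated arrays and 10.31, 10.47 and 10.99 with neomycin. The untreated arrays lay close together (SD 0.09), and the neomycin arrays spread more (SD 0.35), all of them above the untreated ones. The log2 fold change was 1.36 (SE 0.17, ratio 2.61). Its paralog *HOR7* (YMR251W-A), named for its response to high osmolarity, read 12.62, 12.73 and 12.81 without and 13.17, 13.41 and 13.47 with neomycin. Here too the groups were apart, at a smaller distance. The log2 fold change of *HOR7* was 0.63 (SE 0.12, ratio 1.55), 0.73 less than that of *DDR2*. Taken array by array over each gene's own untreated mean, *DDR2* exceeded *HOR7* by 0.63, 0.55 and 1.00 on neomycin replicates 1, 2 and 3. On the untreated arrays the same quantity ran from −0.18 to 0.20, so that the values of the 2 groups did not overlap. With each array left out in turn this difference stayed between 0.59 and 0.83.

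*TMA10* (YLR327C), which encodes a protein that associates with ribosomes, gave 7.53, 7.31 and 6.04 on untreated replicates 1, 2 and 3 and 8.55, 8.70 and 7.31 on neomycin replicates 1, 2 and 3. On replicate 3 it was lowest in both groups, and the neomycin value there was no higher than that of untreated replicate 1. The log2 fold change was 1.23 (SE 0.46, ratio 2.32). It was 0.77 without untreated replicate 3 and 1.66 without neomycin replicate 3. Each of these settings removes the low replicate 3 array of 1 group and keeps that of the other. *STF2* (YGR008C), its paralog, encodes a factor that stabilises the complex of the mitochondrial ATP synthase with its inhibitor and is counted among the hydrophilins. It read 10.59, 10.54 and 10.66 without and 10.59, 11.24 and 10.99 with neomycin. Neomycin replicate 1 lay among the untreated arrays, which differed little (SD 0.06), and the other neomycin arrays lay above them. The log2 fold change was 0.34 (SE 0.16, ratio 1.29), which became 0.52 when neomycin replicate 1 was left out and 0.19 when replicate 2 was. The change of *TMA10* exceeded that of *STF2* by 0.88, from 0.40 without untreated replicate 3 to 1.35 without neomycin replicate 3. On single arrays the excess of *TMA10* was 1.60, 1.09 and −0.04 on the neomycin replicates and 0.57, 0.40 and −0.97 on the untreated ones. These ranges overlap, unlike those of *DDR2* and *HOR7*, and in both groups the lowest value was that of replicate 3. On each replicate number the neomycin value was above the untreated one, though the labels do not say whether the numbers pair cultures.

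**Figure D2:**
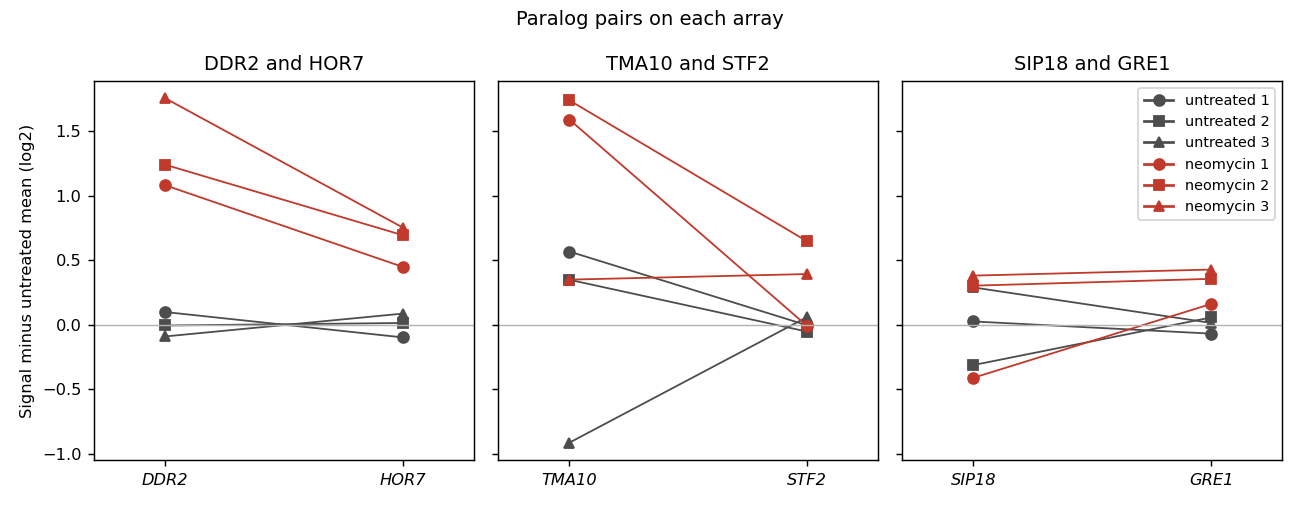
Signal of each paralog minus its own untreated mean (log2, vertical axis), with a line joining both paralogs on the same array (grey untreated, red neomycin; circle, square and triangle for replicates 1, 2 and 3). All 3 neomycin lines fall from *DDR2* to *HOR7*, by 0.63, 0.55 and 1.00, whereas *TMA10* spreads widely in both groups and the lines of *SIP18* and *GRE1* cross.

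*SIP18* (YMR175W) and *GRE1* (YPL223C) encode hydrophilins that are known for their induction by osmotic stress and drying. *SIP18* read 5.32, 4.98 and 5.58 without and 4.88, 5.59 and 5.67 with neomycin, and neomycin replicate 1 was the lowest of all 6 arrays. Its log2 fold change of 0.09 (SE 0.23, ratio 1.08) was smaller than the SD of either group (0.30 and 0.44). The sign of this change depended on single arrays, with 0.34 without neomycin replicate 1 and −0.07, −0.02 and −0.05 without untreated replicate 2 or neomycin replicate 2 or 3. *GRE1* read 5.51, 5.64 and 5.59 without and 5.74, 5.93 and 6.01 with neomycin. Its groups were apart by 0.10 between the nearest arrays, and the log2 fold change was 0.31 (SE 0.11, ratio 1.25). The change of *SIP18* was 0.22 below that of *GRE1*. This difference of *SIP18* minus *GRE1* was −0.05 without neomycin replicate 1, −0.09 without untreated replicate 3 and −0.41 without untreated replicate 2. The values on single arrays overlapped between the groups, from −0.37 to 0.27 without and from −0.57 to −0.05 with neomycin. Both genes read low on this array, their untreated means of 5.29 and 5.58 lying 0.61 and 0.90 above the mark of background.

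Of the genes without a paralog here, *RTC3* (YHR087W) encodes a protein related in structure to the ribosome maturation factor SBDS and linked to RNA metabolism. It read 8.84, 8.88 and 8.61 without and 9.24, 9.70 and 10.07 with neomycin (log2 fold change 0.89, SE 0.20, ratio 1.90). *FMP16* (YDR070C), whose product has been found in purified mitochondria and has no known function, read 6.13, 6.04 and 6.39 without and 6.79, 7.15 and 7.99 with neomycin (1.13, SE 0.28, ratio 2.31). In both genes the groups were apart and neomycin replicate 3 was the highest array. *MOH1* (YBL049W), which is linked to survival in stationary phase, read 4.97, 4.74 and 4.89 without and 5.09, 4.99 and 5.31 with neomycin. The nearest arrays of its groups differed by 0.02, and its untreated mean of 4.86 lay 0.18 above the mark of background. Its log2 fold change was 0.27 (SE 0.12, ratio 1.21).

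Within the neomycin group the genes followed a shared order of arrays. Neomycin replicate 1 was the lowest of the 3 in 8 of the 10 genes, *TMA10* and *MOH1* excepted, and neomycin replicate 3 was the highest in 8, *TMA10* and *STF2* excepted. Over all genes, replicate 1 was the lowest for 51.2% and replicate 3 the highest for 27.8%. Against each gene's untreated mean, neomycin replicate 1 reached 0.67 of the mean change of replicates 2 and 3 in *HSP12*, 0.72 in *DDR2*, 0.62 in *HOR7*, 0.42 in *RTC3* and 0.43 in *FMP16*, but 1.52 in *TMA10*. Without neomycin replicate 1, the arrays were apart in 9 of the 10 genes (14.2% of all genes), and *DDR2*, *HSP12*, *HOR7*, *RTC3* and *FMP16* were among the 2.18% of genes that limma called higher. When any other array was left out, 0 of the 10 were called. These calls rest on the values by which the genes were picked, and nothing is read from them. The cause of this order of the arrays was not tested.

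The deviations of each array from its own group mean describe how the genes vary together once the difference between the groups is taken out. Over the 36 pairs of genes without *TMA10*, the Pearson correlation of these deviations over the 6 arrays was above 0 in 35, with a median of 0.67 and a range from −0.10 (*STF2* with *MOH1*) to 0.94 (*HOR7* with *GRE1*). *DDR2* and *RTC3* gave 0.92, and *DDR2* and *FMP16* gave 0.88. *TMA10* ran the other way, its 9 correlations lying between −0.81 (with *HSP12*) and −0.12 (with its paralog *STF2*). The pooled SD of *TMA10* within the groups, 0.78, was larger than that of 99.8% of all genes, where the median was 0.16. The pooled SD was 0.46 in *FMP16*, 0.44 in *HSP12* and 0.38 in *SIP18*, and at 0.13, 0.11 and 0.14 it was below the median of all genes in *HOR7*, *GRE1* and *MOH1*. All these correlations come from the same 6 arrays and a common normalisation, with 2 of the 6 degrees of freedom spent on the group means. The pairs share genes, and the same share over all pairs of genes was not computed. The counts are therefore not read as a trait of these genes.

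**Figure D3:**
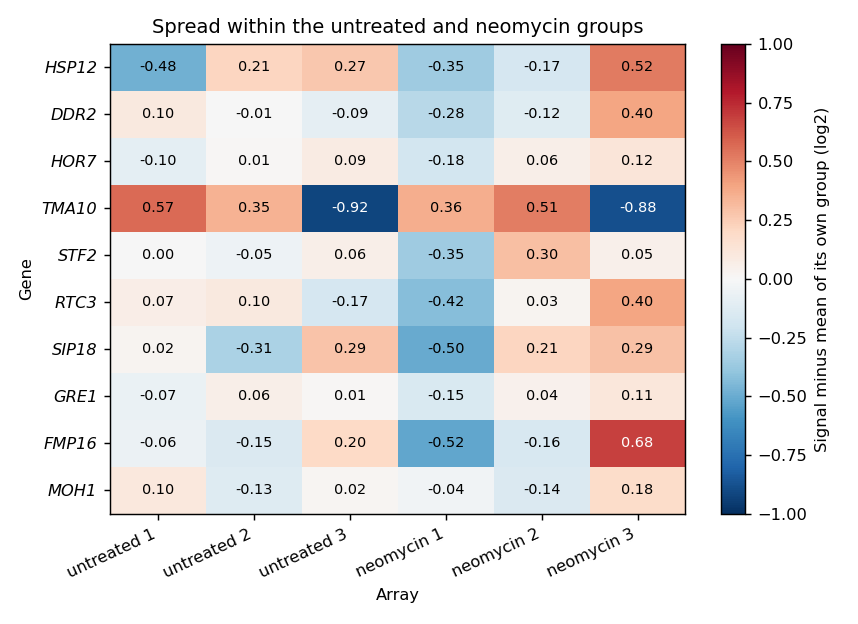
Signal minus the mean of the gene's own group (log2, colour and printed value) for each gene (rows) on each array (columns), red above and blue below the group mean. *TMA10* is 0.92 and 0.88 below its group means on replicate 3. On that replicate *HSP12*, *HOR7*, *STF2*, *SIP18*, *GRE1*, *FMP16* and *MOH1* lie above theirs in both groups, and *DDR2* and *RTC3* only in the neomycin group.

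Genes outside the group with a like pattern were sought among the 1190 genes whose mean lay above the mark of background and whose SD over the 6 arrays was at least 0.25. Nearest to *HSP12*, by Pearson correlation of the log2 signals over the 6 arrays, were YOL014W (0.981, log2 fold change 0.40), YOR385W (0.977, 0.66) and *MET1*, an enzyme of siroheme synthesis (0.977, 0.45). Nearest to *DDR2* were *BAG7*, a GTPase-activating protein for Rho1 (0.997, 2.28, from an untreated mean of 3.66 under the mark of background), *SLT2*, the MAP kinase of the cell wall integrity pathway (0.989, 0.82), and *CPA1*, a subunit of carbamoyl phosphate synthetase (0.988, 0.79). With 6 arrays in 2 groups, a gene whose rise between the groups is large against its spread correlates highly with these. The values therefore serve as a description.

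The neighbours of the 10 genes along the chromosomes, taken from the RefSeq gene table (R64), were examined as well. Of 20 adjacent protein-coding genes 17 were measured. In 16 of them the log2 fold change ran from −0.40 (*SPE2*, beside *DDR2*) to 0.14 (*PAI3*, beside *SIP18*), and none of these was called by limma. The exception was *GTO3*, an omega-class glutathione transferase encoded next to *HOR7*, which read 4.53, 4.68 and 4.48 without and 5.34, 5.64 and 5.27 with neomycin. It rose by 0.85 (SE 0.13, limma adjusted p = 0.0421), from an untreated mean of 4.56 under the mark of background, and it is named because of this value. Its call, like that of *DDR2*, was lost without any 1 of the arrays other than neomycin replicate 1.

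The wider stress regulon was described with lists of genes that contain none of the 10. These lists were written with earlier results of these data known. Their counts and shares are therefore a description, and nothing is read from them. Of 47 genes that depend on Msn2 and Msn4, such as those of catalase, trehalose and glycogen metabolism and heat shock proteins, 41 had a log2 fold change above 0, against 37.9% of all genes. Their median was 0.35, and in 13 (27.7%, against 5.58% of all genes) every neomycin array was above every untreated array. Limma called 0 of them in either direction (at an unadjusted p under 0.05, 16 higher and 0 lower). Over all genes 5.05% were higher and 8.33% lower at this unadjusted threshold, which is also that of the counts for the lists that follow. By the ratio criteria of the methods 7 of the 47 were induced, against 1.45% of all genes. The largest value was that of *RTS3*, a gene of a putative protein phosphatase component, which read 8.13, 7.62 and 7.08 without and 8.71, 8.95 and 8.83 with neomycin (log2 fold change 1.22, SE 0.24, limma adjusted p = 0.0744). *CTT1* followed with 7.28, 7.00 and 6.99 without and 7.50, 8.23 and 8.64 with neomycin (1.03, SE 0.26, adjusted p = 0.167). As in *RTC3* and *FMP16*, neomycin replicate 1 was the lowest and replicate 3 the highest array of its group. *PHM8*, a lysophosphatidic acid phosphatase (0.97, SE 0.37, adjusted p = 0.336), and *RTN2*, a reticulon of the endoplasmic reticulum (0.96, SE 0.19, adjusted p = 0.0857), came next. In *PHM8* untreated replicate 3 read 5.92, far below 7.50 and 7.29 on untreated replicates 1 and 2, and without it the log2 fold change was 0.48. Without neomycin replicate 1, limma called 13 of the 47 genes higher, against 2.18% of all genes. Without any other array it called 0.

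**Figure D4:**
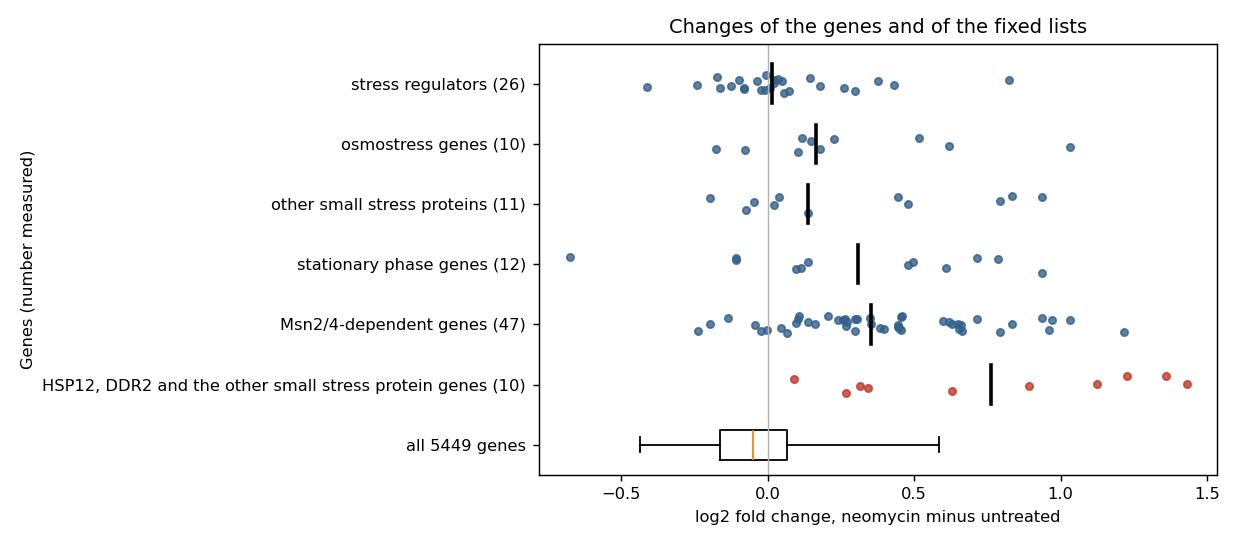
Log2 fold change (neomycin minus untreated, horizontal axis) of each gene as a point, for *HSP12*, *DDR2* and the other 8 genes (red) and for the lists of other stress genes (blue), with the median of each list as a black bar. The box gives the quartiles of all 5449 genes, the orange line their median, and the whiskers the 2.5 and 97.5 percentiles, −0.44 and 0.59, and the list medians run from 0.01 (stress regulators) to 0.35 (genes dependent on Msn2 and Msn4) against 0.76 for the 10 genes.

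The 12 genes of stationary phase had a median log2 fold change of 0.31, which was 0.16 without neomycin replicate 2. Limma called 0 of them (4 higher and 1 lower where p was not adjusted). *MPC3*, a mitochondrial pyruvate carrier subunit, had 0.79 (SE 0.26, adjusted p = 0.275; 0.51 without untreated replicate 3), *UBI4*, the stress-induced polyubiquitin gene, 0.71 (SE 0.19, adjusted p = 0.181), *FMP45*, a membrane protein of the cell cortex, 0.61 (SE 0.18, adjusted p = 0.242) and *SNO1*, which acts in vitamin B6 synthesis, −0.68 (SE 0.18, adjusted p = 0.197). Of 11 other small stress proteins, with a median of 0.14 that ran from 0.05 without neomycin replicate 3 to 0.24 without untreated replicate 3, 0 were called (3 higher and 0 lower where p was not adjusted). The groups were apart in *RGI1*, needed for energy metabolism under stress (0.83, SE 0.24, adjusted p = 0.209), *TFS1*, an inhibitor of carboxypeptidase Y (0.79, SE 0.17, adjusted p = 0.0973), and *SPG1*, a mitochondrial protein needed in stationary phase (adjusted p = 0.388). *SPG1* read 4.45, 4.14 and 4.36 without and 4.50, 5.32 and 4.57 with neomycin, so that only neomycin replicate 2 lay above the mark of background, and its log2 fold change of 0.48 (SE 0.22) was 0.22 without that array. In the list of 10 osmostress genes, which bears on *HOR7*, *SIP18* and *GRE1*, the median was 0.16 and 0 were called (2 higher and 0 lower where p was not adjusted). Single arrays set this median, which was 0.00 without untreated replicate 3, 0.06 without neomycin replicate 1, 0.10 without neomycin replicate 2, 0.26 without untreated replicate 1 and 0.29 without neomycin replicate 3. Apart from *CTT1*, the groups did not overlap in *GCY1*, a glycerol dehydrogenase (0.52, SE 0.16, adjusted p = 0.242). By the ratio criteria of the methods 1 of the 12 stationary phase genes and 3 of the 11 other small stress proteins were induced. So was 1 of the 10 osmostress genes, *CTT1*, against 1.45% of all genes. Among the stationary phase genes, and also among the other small stress proteins, the largest log2 fold change was 0.94. It was that of a gene whose groups overlapped and which is not named here. *INH1* and *STF1*, which encode the ATP synthase inhibitor and its relative and whose products act with Stf2, had log2 fold changes between 0.04 and 0.21.

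The regulators of this response showed smaller values. Over 26 genes, among them *MSN2*, *MSN4*, subunits of protein kinase A and the kinases Rim15 and Yak1, the median was 0.01, and 14 lay above 0. The median lay between −0.07 without neomycin replicate 2 and 0.06 without neomycin replicate 1. Limma called 0 of them (4 higher and 1 lower where p was not adjusted). In 4 of the 26 (15.4%, against 5.58% of all genes) every neomycin array was above every untreated array. In 2 every neomycin array was below, as in 12.8% of all genes. Among these genes the largest changes were those of *XBP1*, a stress-induced repressor (0.82, SE 0.27, adjusted p = 0.275), and *YAK1*, a kinase that opposes protein kinase A signalling (0.43, SE 0.16, adjusted p = 0.314). Next came *RAS1*, a GTPase that activates adenylate cyclase (−0.41, SE 0.11, adjusted p = 0.179), and *PDE1*, the low-affinity cyclic AMP phosphodiesterase (0.38, SE 0.10, adjusted p = 0.188). In *XBP1*, untreated replicate 2 read 6.31, against 5.31 and 5.16 on untreated replicates 1 and 3 and 6.39 to 6.45 with neomycin.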

How the data were processed

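RNA from 3 untreated and 3 neomycin-treated cultures (biological replicates per the labels) was hybridised to 6 one-colour Affymetrix arrays. The values deposited by the authors are log2 signals from GCRMA, which adjusts background, normalises between arrays and summarises probes (version not given in the sources used here). No earlier step was repeated. The number of arrays limits the precision.

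Of 5716 probe sets, 5498 carry 1 gene symbol in the platform annotation (0 several, 218 none), all updated through RefSeq (R64). The probe set with the highest mean was taken for each of 5449 genes, 47 of which have several. Groups were compared with limma 3.58.1 in R 4.3.3 (lmFit, eBayes, 2-sided, Benjamini-Hochberg over 5449 genes, threshold 0.05), tested on simulated data. Fold changes are differences of group means of log2 signals with moderated SE. Ratios are of mean linear signals. The Bayesian p of the methods was rebuilt (window 101, confidence 10), as its settings are not stated. For a single gene an exact permutation test of 3 arrays against 3 cannot go below p = 0.1.

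The members and lists were chosen with earlier results of these data known. The lists overlap (*CTT1*, *UBI4* and others stand in several) and some listed genes, such as *ENA1* and YJL144W, were not analysed here. Named were the 10 genes, up to 4 per list with the largest changes and non-overlapping groups, the 3 genes nearest to *HSP12* and to *DDR2*, and marker genes. Neighbouring genes were added after their values were seen. Promoter and protein sequences were not used here. As alternatives served a block by replicate number, another quantile normalisation, median centring, leaving out the 1362 dimmest genes, the mean of probe sets, an intensity trend, a robust prior, an adjusted p under 0.1, the ratio criteria and each array left out.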

Additional observations from a re-analysis of the deposited data

How the results depend on the processing

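The log2 fold changes of the 10 genes stayed above 0 in each alternative that gave a value (12 or 13 per gene), except that of *SIP18*, which was above 0 in 9 of 12. The changes of *HSP12*, *DDR2* and *HOR7* ran from 1.17 to 1.61, from 1.16 to 1.50 and from 0.57 to 0.72. The counts of calls depended on the setting, and the cause was not tested. Against 23 higher and 5 lower genes, 1 of the 10 and 0 of the 47 Msn2/4-dependent genes, the replicate block gave 0, 0, 0 and 0, renewed quantile normalisation 50 higher genes and 2 of the 10, median centring 44 and 2, leaving out the dimmest genes 40 and 3 with 1 Msn2/4-dependent gene, an intensity trend 48 higher and 14 lower genes, 3 of the 10 and 1, an adjusted p under 0.1 59, 23, 3 and 3, and the ratio criteria 79, 20, 5 and 7. Leaving out 1 array gave 0 to 119 higher and 0 to 23 lower genes, 0 to 5 of the 10 and 0 to 13 of the 47. The highest of these are without neomycin replicate 1. The arrays were apart in 7 to 9 of the 10 genes, an alternative chosen after seeing the data. Over all genes this share was 5.58% with all 6 arrays and 14.2% without neomycin replicate 1. It was not computed without each of the other arrays. Groups with fewer arrays are more easily apart, so nothing is read from these counts. With 1 array fewer the fit also has less information on the spread. Without the dimmest genes the median was 0.11 in the stationary phase genes and 0.04 in the other small stress proteins. Leaving out 1 array gave 0.00 to 0.29 in the osmostress genes and 0.05 to 0.24 in the other small stress proteins.

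The labels number the replicates and do not say whether cultures were paired. Over all genes, the deviations of same-numbered arrays from their group means correlated by −0.0003, −0.38 and 0.44 for replicates 1, 2 and 3. Untreated replicates 1, 2 and 3 correlated best with neomycin replicates 2, 1 and 3 (0.40, 0.40 and 0.44). These values cannot settle whether cultures were paired, and a block by replicate number may not match any pairing. The trend and the robust prior leave fold changes as they are, and *TMA10*, *SIP18*, *GRE1*, *FMP16* and *MOH1* have no value without the dimmest genes.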
